A study of Mus musculus with 4 samples.

Results

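The histone genes of primary mouse vascular smooth muscle cells (VSMCs) were described in poly-A–enriched mRNA-seq libraries. They were taken by symbol, as every gene named Hist1h to Hist4h or H2af followed by letters or digits, plus H3f3a, H3f3b and H1f0, without symbols that end in ps. The rule gave 82 of the 48587 genes in the count table. Of these, 69 were counted by symbol as clustered histone genes and 13 as replacement histone genes. Of the 69, 56 were named Hist1, all on chromosome 13, 10 Hist2, 2 Hist3 and 1 Hist4. By class, the clustered genes were 6 of linker histone H1, 20 of H2A, 18 of H2B, 12 of H3 and 13 of H4.

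The VSMCs came from the descending aorta of C57BL/6J mice 8 to 12 weeks old, both sexes being used in the study, and were grown out of the vessel after enzymatic removal of the adventitia and scraping of the endothelium. Cells of both groups were exposed to lentivirus for 24 hours and collected 48 hours later. The shCTR group carried a nontargeting hairpin against plant microRNA ath-miR-159 in a pLKO.1 vector with GFP, and the shMettl14 group a hairpin against Mettl14, a subunit of the RNA N6-adenosine methyltransferase that writes m6A. Each group had 2 libraries, lettered A and B, with 114343653 to 124815868 counts. What the letters stand for, and whether the libraries came from separate cultures, is not stated, so p-values measure the spread between these libraries. Mettl14 had 2050 and 2154 counts in shCTR A and B and 546 and 568 in shMettl14 A and B, a log2 fold change of -2.08 (SE 0.25) with an unadjusted p of 0.00039 and an adjusted p of 1 in edgeR's quasi-likelihood test, and an adjusted p of 2.02e-09 in DESeq2. Of 7 smooth muscle markers, Acta2 had the highest mean CPM, with 257838 to 402838 counts, and Des the lowest, with 74 to 276. In shMettl14 B, Tagln (293138 counts) was above Acta2 (269604). Of 6 leukocyte markers, Cd68 had the highest mean CPM, with 420 to 521 counts, and Adgre1 the lowest, with 0 to 4. Of 6 endothelial markers, Pecam1 and Cdh5 were highest with 54175 to 88586 and 57679 to 88323 counts. Kdr had the lowest mean CPM, with 575 to 1053 counts, though in shCTR A Tek was lower (573). Per kilobase of exon, the mean levels of Cdh5 (149 CPM) and Pecam1 (93.4 CPM) were below those of Acta2 (1206 CPM) and Tagln (1088 CPM) but above those of Cnn1 (57.9 CPM) and Myh11 (24.6 CPM). The other endothelial markers were lower per kilobase, with Tie1 at 30.5, Tek at 1.71, Vwf at 1.11 and Kdr at 0.74 CPM. The smooth muscle marker Des was at 0.49 CPM. Endothelial transcripts were thus counted in libraries labelled VSMC, and which cells they came from was not tested. The histone values are those of all cells in the libraries.

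Histones are the proteins around which DNA is wound. Clustered histone genes mostly make their mRNA during S phase, and that mRNA ends in a stem-loop in place of a poly(A) tail. The stem-loop is bound by the protein Slbp, and the U7 snRNP cuts behind it. Replacement histone genes lie alone, usually have introns, make polyadenylated mRNA outside S phase and supply variants such as H3.3 and H2A.Z. A poly(A) selection therefore favours replacement histone mRNA, and counts of clustered genes in such a library are those of the transcripts that were captured by it.

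The stem-loop was found in the annotated transcripts themselves. It was searched for as a perfect inverted repeat of 6 base pairs whose first strand starts with GG, around a loop of 4 bases, within 150 bases after the stop codon (GENCODE M21, GRCm38). Of the 52 clustered genes with enough annotated sequence there, 46 (88.5%) held it, against 155 of 20965 protein-coding genes (0.739%). The form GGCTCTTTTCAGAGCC stood in 26 clustered genes. The stretches below are shown because they mark the mRNA end that a poly(A) selection does not capture, in the clustered linker gene with most counts, an H2B gene and an H4 gene described further on, and the only replacement gene with a match. The capitals mark the stem-loop, and the lower-case letters are 6 flanking bases on each side.

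Hist1h1c: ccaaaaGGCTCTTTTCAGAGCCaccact

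Hist1h2bg: cccaaaGGCTCTTTTCAGAGCCacccat

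Hist1h4i: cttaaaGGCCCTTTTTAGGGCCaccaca

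H2afx: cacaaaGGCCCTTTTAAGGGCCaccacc

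On GRCm38, the stem-loop of Hist1h1c lies at chr13:23739512-23739527 on the plus strand, 24 bases after the stop codon. That of Hist1h2bg lies at chr13:23571843-23571858 on the plus strand, that of Hist1h4i at chr13:22040966-22040981 on the minus strand and that of H2afx at chr9:44335240-44335255 on the plus strand. H2afx was the 1 replacement gene of 9 searched that held the stem-loop, and it is known for a dual kind of mRNA, with a stem-loop or with a poly(A) tail. The other known mark of an mRNA end, the poly(A) signal AATAAA, stood in the last exon of 22 of 67 protein-coding clustered genes (32.8%), of 7 of 12 replacement genes (58.3%) and of 17553 of 21674 protein-coding genes (81%). The search is by letters only, and other poly(A) signals were not searched for. It covered the whole last exon, which is the whole transcript in 64 of 69 clustered genes. A match thus need not lie near the mRNA end. Over the genes with an annotated 3′ UTR of at least 16 bases, the shares were 22 of 52 clustered (42.3%) and 7 of 9 replacement genes (77.8%).

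Replacement genes held most of the histone counts. Their summed level was 1073 and 762 CPM (counts scaled to a common library size, with edgeR's TMM) in shCTR A and B and 957 and 753 in shMettl14 A and B. The summed level of the clustered genes was 339 and 214 CPM in shCTR A and B and 311 and 195 in shMettl14 A and B. Clustered genes thus took 24% (exact 95% binomial interval 23.8 to 24.2), 21.95% (21.7 to 22.2), 24.5% (24.3 to 24.7) and 20.5% (20.3 to 20.8) of all histone counts in shCTR A, shCTR B, shMettl14 A and shMettl14 B. The share was larger in both letter A libraries than in both letter B libraries, and it overlapped between shCTR and shMettl14 (exact permutation test, two-sided p = 1, where 0.33 is the smallest p that 2 against 2 libraries allow). Intervals cover counting error only.

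The classes differed in how their counts were split. Replacement genes held 98.0% to 98.4% of the H3 counts and 95.1% to 96.4% of the H2A counts over the 4 libraries. For H1 the single replacement gene H1f0 held 46.4% and 66.5% in shCTR A and B and 50.1% and 63.9% in shMettl14 A and B, so that letter B libraries were higher. All H2B and H4 counts came from clustered genes, since no member of the rule is a replacement gene of these classes.

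**Figure D1:**
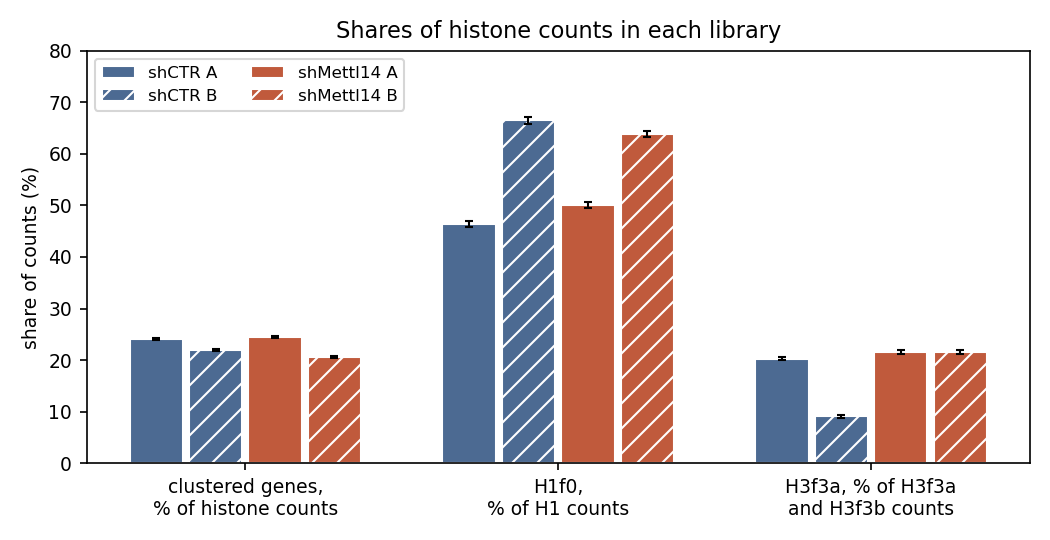
Share of counts (%) in each of the 4 libraries for 3 quantities, with bars for single libraries, plain for letter A and hatched for letter B, and error bars for the exact 95% binomial interval. H3f3a takes 9.12% of the H3f3a and H3f3b counts in shCTR B against 20.2% to 21.6% in the other libraries, and H1f0 takes a larger share of H1 counts in both letter B libraries.

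Among replacement genes, per kilobase of exon, H3f3b (chr11:116021912-116027962) had the highest mean level of all histone genes. H3f3b and H3f3a both encode the H3.3 variant, which is laid down outside replication. H3f3b had 55417 and 38448 counts in shCTR A and B and 50115 and 40400 in shMettl14 A and B, a mean of 132 CPM per kb. Both letter A libraries were above both letter B libraries, and the 2 groups overlapped (log2 fold change -0.20, SE 0.27, adjusted p = 1 in edgeR).

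H3f3a (chr1:180800832-180813943) stood out in 1 library. It had 14042 and 3859 counts in shCTR A and B and 13783 and 11119 in shMettl14 A and B. Its share of the H3f3a and H3f3b counts was 20.2% in shCTR A, 9.12% in shCTR B, 21.6% in shMettl14 A and 21.6% in shMettl14 B. The library shCTR B was the low one, and the fitted log2 fold change of 0.34 (SE 0.60, adjusted p = 1 in edgeR) became -0.30 without it. Opposite to H3f3a lie other annotated genes, H3f3aos among them, which cover 22.8% of its exons, and use of strand in the counting is not stated.

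H1f0, the replacement linker histone (chr15:79028450-79030504), had the log2 fold change nearest to 0 among replacement genes. It had 15623 and 13285 counts in shCTR A and B and 15791 and 16893 in shMettl14 A and B, and a log2 fold change of 0.01 (SE 0.19). With 63.7 CPM per kb, H1f0 stood next to the clustered linker gene Hist1h1c, at 66.2 CPM per kb, and the ranges of the 2 genes over the libraries overlapped.

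The H2A variants followed. H2afz and H2afv encode forms of H2A.Z, a variant found at promoters. H2afz had 8695 and 6007 counts in shCTR A and B and 8094 and 7507 in shMettl14 A and B (log2 fold change -0.07, SE 0.24). H2afv had 3223 and 2877 counts in shCTR A and B and 2553 and 2117 in shMettl14 A and B. Both shMettl14 libraries were below both shCTR libraries for H2afv (28.4 and 26.6 against 21.5 and 16.3 CPM), with a log2 fold change of -0.54 (SE 0.24), an unadjusted p of 0.072 and an adjusted p of 1 in edgeR's quasi-likelihood test. H2afv and H2afy were the 2 of 10 tested replacement genes with both shMettl14 libraries lower, where 13.3% of all tested genes were so.

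H2afy and H2afy2 encode the macroH2A variants, which carry a large extra domain. H2afy had 13342 and 12904 counts in shCTR A and B and 13030 and 12950 in shMettl14 A and B, and on the CPM scale both shMettl14 libraries (109.7 and 99.6) were below both shCTR libraries (117.5 and 119.5), a log2 fold change of -0.18 (SE 0.19). H2afy2 had 2206 and 1555 counts in shCTR A and B and 1907 and 2189 in shMettl14 A and B, with the groups overlapping. H2afy3, with 3, 22, 37 and 31 counts in shCTR A, shCTR B, shMettl14 A and shMettl14 B, is annotated as a pseudogene and was the single tested replacement gene with both shMettl14 libraries higher, where 14.7% of all tested genes were so.

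H2afj and H2afx had low letter B libraries, H2afj in both groups and H2afx in shCTR. H2afx encodes the histone that is phosphorylated at DNA breaks. H2afj had 6491 and 2138 counts in shCTR A and B and 5582 and 1878 in shMettl14 A and B, so that both letter B libraries were low. H2afx had 2838 and 1156 counts in shCTR A and B and 2760 and 2820 in shMettl14 A and B, so that shCTR B alone was low. Their log2 fold changes were -0.32 (SE 0.73) for H2afj and 0.33 (SE 0.43) for H2afx, and the latter was -0.16 without shCTR B. H2afb1, H2afb2 and H2afb3 had 0 counts in every library, which allows at most 0.0278 CPM of assigned reads in any of them. Of their 50-base windows, 43.8%, 8.03% and 46.8% also occur in transcripts of other genes. How such reads were counted is not stated.

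**Figure D2:**
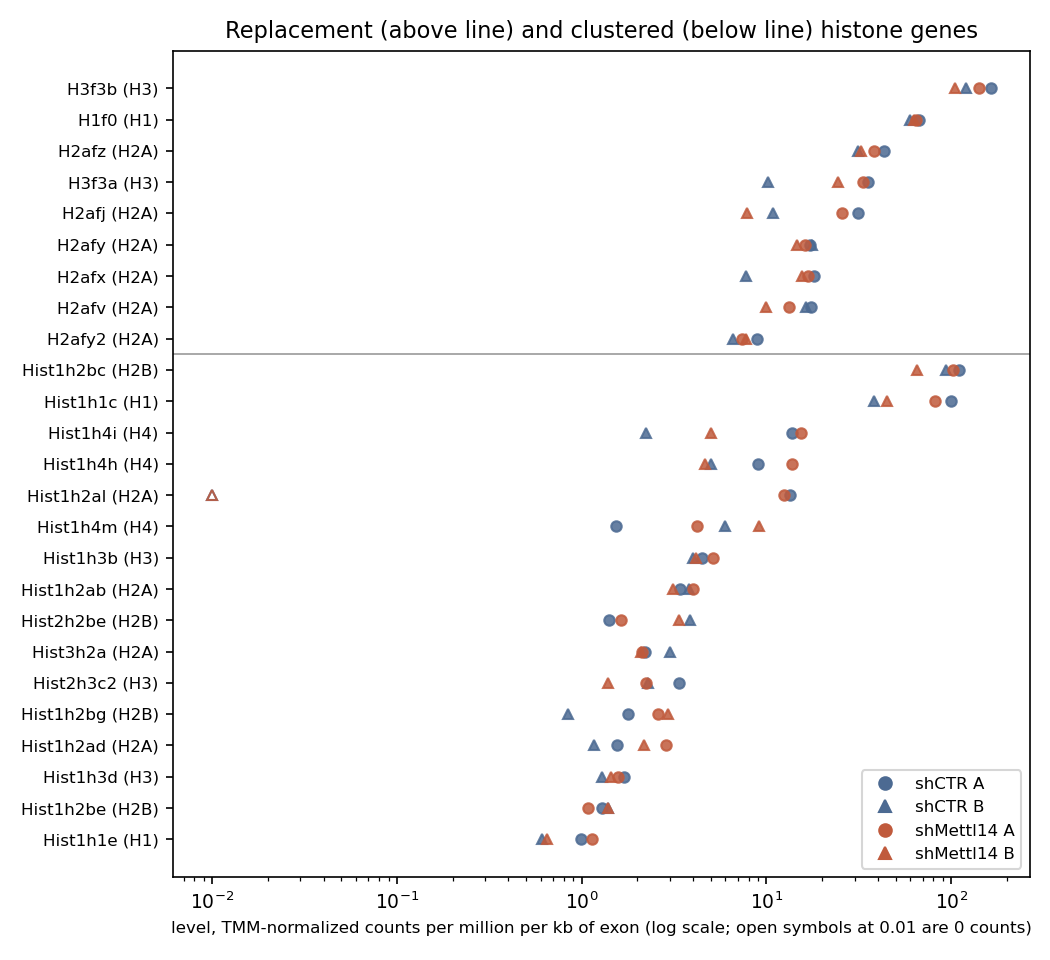
Level of the 25 histone genes with a mean of at least 1 CPM, in TMM-normalized CPM per kb of exon on a log axis, with 1 symbol per library (circle for letter A, triangle for letter B, blue for shCTR, red for shMettl14). Hist1h2bc and Hist1h1c lie in the range of the highest replacement genes, and the other clustered genes lie lower, with open symbols at 0.01 for the 0 counts of Hist1h2al in both letter B libraries.

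Among clustered genes, counts were held by a pair of genes. Hist1h2bc, an H2B gene (chr13:23684199-23692908), had 14463 and 11689 counts in shCTR A and B and 14088 and 9845 in shMettl14 A and B. Hist1h1c, a linker histone gene (chr13:23738808-23740367), had 17623 and 6461 counts in shCTR A and B and 15215 and 9114 in shMettl14 A and B. Together they took 83.2% and 78.5% of the clustered counts in shCTR A and B and 79.3% and 74.9% in shMettl14 A and B. Both carry AATAAA in their annotated last exon, and no stem-loop was found in the annotated transcripts of Hist1h2bc. For neither gene did the groups separate, with log2 fold changes of -0.28 (SE 0.28) for Hist1h2bc and -0.12 (SE 0.54) for Hist1h1c, and an adjusted p of 1 for each in edgeR.

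All other clustered genes had a mean below 10 CPM, and 16 of the 69 reached a mean of 1 CPM, against 9 of the 13 replacement genes. The H2B gene with the next highest mean CPM, Hist2h2be, had 419 and 1085 counts in shCTR A and B and 507 and 1139 in shMettl14 A and B, the letter B libraries being higher. In both letter A libraries it was below the H2B gene Hist1h2be, singled out after its values were seen, which had 647 and 669 counts in shCTR A and B and 573 and 807 in shMettl14 A and B. The other linker gene by level, Hist1h1e, had 217 and 127 counts in shCTR A and B and 261 and 163 in shMettl14 A and B, the letter A libraries being higher. Neither Hist2h2be nor Hist1h1e separated the groups.

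By mean CPM over all libraries, the H2A class was led by Hist3h2a and Hist1h2al. In both letter B libraries, however, Hist1h2ab was above Hist1h2al, with 194 counts in shCTR B and 192 in shMettl14 B. Hist3h2a had 534 and 698 counts in shCTR A and B and 537 and 586 in shMettl14 A and B, and on the CPM scale both shMettl14 libraries (4.52 and 4.51) were just below both shCTR libraries (4.70 and 6.46). Hist1h2al, annotated as a pseudogene apart from the other Hist1 genes (chr13:51202727-51203065), had 518 counts in shCTR A and 499 in shMettl14 A and 0 in shCTR B and shMettl14 B. It was thus present in letter A alone at this depth, and 67.6% of its 50-base windows also occur in transcripts of other genes.

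By mean CPM over the 4 libraries, the H3 class was led by Hist1h3b and Hist2h3c2. Hist1h3b had 316 and 269 counts in shCTR A and B and 380 and 337 in shMettl14 A and B. Hist2h3c2 had 389 and 253 in shCTR A and B and 271 and 184 in shMettl14 A and B. In shMettl14 B, Hist2h3c2 was below Hist1h3d, which had 235 counts there. Hist2h3c2 was lower in shMettl14 within each letter, by 0.58 and 0.72 on the log2 scale (adjusted p = 1 in edgeR, log2 fold change -0.64, SE 0.44). The H4 gene with the highest mean CPM over the 4 libraries was Hist1h4i, with 1140 and 174 counts in shCTR A and B and 1327 and 472 in shMettl14 A and B. Hist1h4h had 480 and 255 counts in shCTR A and B and 768 and 284 in shMettl14 A and B. In both H4 genes the letter A libraries were higher and the groups overlapped, and in both letter B libraries Hist1h4m had a higher CPM than Hist1h4i.

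Histone genes were also compared between the letters, which separated more of all tested genes than the hairpins did. Both letter A libraries were above both letter B libraries in 16 of 44 tested clustered genes and 6 of 10 tested replacement genes, where 28.8% of all tested genes were so. Both letter A libraries were below in 4 clustered genes and 0 replacement genes, where 27.2% of all tested genes were so. Hist1h2al, Hist1h4i, Hist1h1c, H2afj and H3f3a were higher in letter A. Hist1h4m, with 70 and 260 counts in shCTR A and B and 201 and 477 in shMettl14 A and B, and Hist2h2be were higher in letter B.

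Low clustered genes were often missing from shCTR B. Of the 69 clustered genes, 57 and 43 had a count in shCTR A and B and 58 and 51 in shMettl14 A and B. At 0 in shCTR B but with a count in each other library were 7 of the 69 clustered genes, against 0 for shCTR A, 0 for shMettl14 A and 2 for shMettl14 B. The same count over the 48587 genes of the whole table was 1751 for shCTR B, 381 for shCTR A, 309 for shMettl14 A and 346 for shMettl14 B. Over the whole table shCTR B was also the library in which the fewest genes had a count, 44.7% against 50.6% to 52%. In 22 of the 44 tested clustered genes (50%) shCTR B alone had the lowest level, beside 31.4% of all tested genes. For shMettl14 B this count was 13 (29.5%, beside 20.7%). It was 4 (9.09%, beside 27.9%) for shCTR A and 3 (6.82%, beside 19.6%) for shMettl14 A.

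Some histone genes had no counts. Of the 82 genes, 11 had 0 counts in all 4 libraries, 8 clustered and 3 replacement. In 6 of these 8 (Hist2h2aa1, Hist2h2aa2, Hist2h2bb, Hist2h3b, Hist2h3c1 and Hist1h2ap), at least 93% of 50-base windows also occur in transcripts of another gene. In 5 of the 6, all but Hist1h2ap, another annotated gene also covers all exon bases on the same or the other strand. Other genes with as much sharing had a few counts, such as Hist1h2bq (97.3%), with 8 and 1 in shCTR A and B and 7 and 1 in shMettl14 A and B. Hist1h2aa and Hist1h2ba, the other two, and Hist1h1t, with 3 counts in shCTR A, 1 in shMettl14 B and 0 in the others, are known from germ cells. At least 50% of the windows were shared in 36 of 69 clustered genes and in 0 of 13 replacement genes, and how reads on several copies were counted is not stated, so levels of single clustered genes are uncertain.

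In the comparison of shMettl14 with shCTR, 54 histone genes passed the filter on low counts, 44 clustered and 10 replacement, and 0 of them had an adjusted p under 0.05 in edgeR, as did 0% of the 18916 genes tested. A single histone gene, Hist1h2bp, had an unadjusted p under 0.05, as had 1.67% of all genes in the fit. That count was 8 (14.8%) without shCTR A, beside 6.9% of all tested genes, 3 (5.26%) without shCTR B, beside 4.08%, and 0 without shMettl14 A or without shMettl14 B, beside 0.564% and 0.386%. With the replicate block it was 11 (20.4%), beside 10.3%. DESeq2 called 0 histone genes, beside 0.0211% of all tested genes, and 2 histone genes had an unadjusted p under 0.05 in it, beside 2.05%. The median log2 fold change was 0.20 for the tested clustered genes, -0.06 for the tested replacement genes (0.051 with library totals alone in place of TMM) and 0.01 for all tested genes. These medians cover only genes that passed the filter, and the clustered median was -0.03 without shCTR B, -0.08 without shMettl14 A and 0.69 without shCTR A. Over the 16 clustered genes with a mean of at least 1 CPM, the median was 0.0025, with 8 above and 8 below 0.

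The summed levels did not separate the groups. The clustered sum was 277 ± 88.6 CPM in shCTR and 253 ± 82.3 in shMettl14 (SD, n = 2, exact permutation p = 0.667), with log2 ratios of -0.13 in letter A and -0.14 in letter B. The replacement sum was 917 ± 220.3 CPM in shCTR and 855 ± 144.5 in shMettl14 (SD, n = 2, exact permutation p = 0.667), with log2 ratios of -0.16 in letter A and -0.02 in letter B. Leaving out shCTR A turned both sums to higher in shMettl14 (log2 ratios 0.20 and 0.16), as did leaving out shMettl14 B (0.21 and 0.09). In bulk libraries, fewer cells of a type and less RNA per cell cannot be told apart.

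Hist1h2bp, an H2B gene (chr13:21787461-21789213), had 3 and 10 counts in shCTR A and B and 47 and 30 in shMettl14 A and B. Both shMettl14 libraries were higher, with a log2 fold change of 2.38 (SE 0.91), an unadjusted p of 0.0474 and an adjusted p of 1 in edgeR's quasi-likelihood test. Under 50 counts in every library lie behind this value.

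Among clustered genes with at least 1 CPM, the 3 highest log2 fold changes were those of Hist1h2bg, Hist1h2ad and Hist1h4m. Hist1h2bg had 1.10 and 0.518 CPM in shCTR A and B and 1.61 and 1.81 in shMettl14 A and B, a log2 fold change of 1.08 (SE 0.52). Hist1h2ad, an H2A gene, had 101 and 72 counts in shCTR A and B and 193 and 161 in shMettl14 A and B, a log2 fold change of 0.88 (SE 0.43). For both genes the shMettl14 libraries were above the shCTR libraries in each letter. Hist1h4m had a log2 fold change of 0.83 (SE 0.78), which was 0.16 without shCTR A, 0.17 without shMettl14 B, 1.28 without shMettl14 A and 2.12 without shCTR B, and its groups overlapped. That of Hist1h2bg was 0.63 without shCTR B and 1.72 without shCTR A. The 3 lowest were Hist2h3c2, Hist3h2a and Hist1h2bc, already given, and each of the 6 had an adjusted p of 1 in edgeR.

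Both shMettl14 libraries were above both shCTR libraries in 10 of 44 tested clustered genes (22.7%), beside 14.7% of all tested genes. These were Hist1h2bg, Hist1h2ad, Hist1h1b, Hist1h2bj, Hist2h4, Hist1h2ae, Hist1h2bp, Hist1h2bf, Hist1h3a and Hist1h4k, of which 4 are H2B genes, and those beyond the rule for named genes were singled out after their values were seen. With fewer libraries to separate, the count of higher genes was 23 (52.3%) without shCTR A, beside 38.3% of all tested genes, and 20 (45.5%) without shMettl14 B, beside 28.9%. It was 13 (29.5%) without shCTR B, below the 35.8% of all tested genes, and 14 (31.8%) without shMettl14 A, beside 29.4%. Both shMettl14 libraries were below in 5 (11.4%), beside 13.3% of all tested genes, and these were Hist3h2a, Hist2h3c2, Hist1h4a, Hist1h3e and Hist1h3g, of which 3 are H3 genes. That count was 7 (15.9%) without shCTR A, beside 34.4% of all tested genes, and 18 (40.9%) without shCTR B, beside 35.3%. It was 13 (29.5%) without shMettl14 A, beside 27%, and 8 (18.2%) without shMettl14 B, beside 26.7%. Hist1h2bj had 59 and 38 counts in shCTR A and B and 136 and 115 in shMettl14 A and B. Hist1h1b, a linker histone gene, had 65 and 46 counts in shCTR A and B and 140 and 108 in shMettl14 A and B. Hist1h2bf had 9 and 6 counts in shCTR A and B and 34 and 27 in shMettl14 A and B, and Hist1h2ae had 36 and 27 in shCTR A and B and 129 and 61 in shMettl14 A and B. Hist1h3a had 8 and 0 counts in shCTR A and B and 22 and 12 in shMettl14 A and B. Hist1h4k had 4 and 0 in shCTR A and B and 12 and 13 in shMettl14 A and B. Both these genes and Hist1h2bf passed the filter on low counts through shMettl14 alone. Hist1h3g, with 11 and 21 in shCTR A and B and 8 and 0 in shMettl14 A and B, passed through shCTR alone. Among the 16 clustered genes of at least 1 CPM, both shMettl14 libraries were higher in 2 and lower in 2 (12.5% each).

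**Figure D3:**
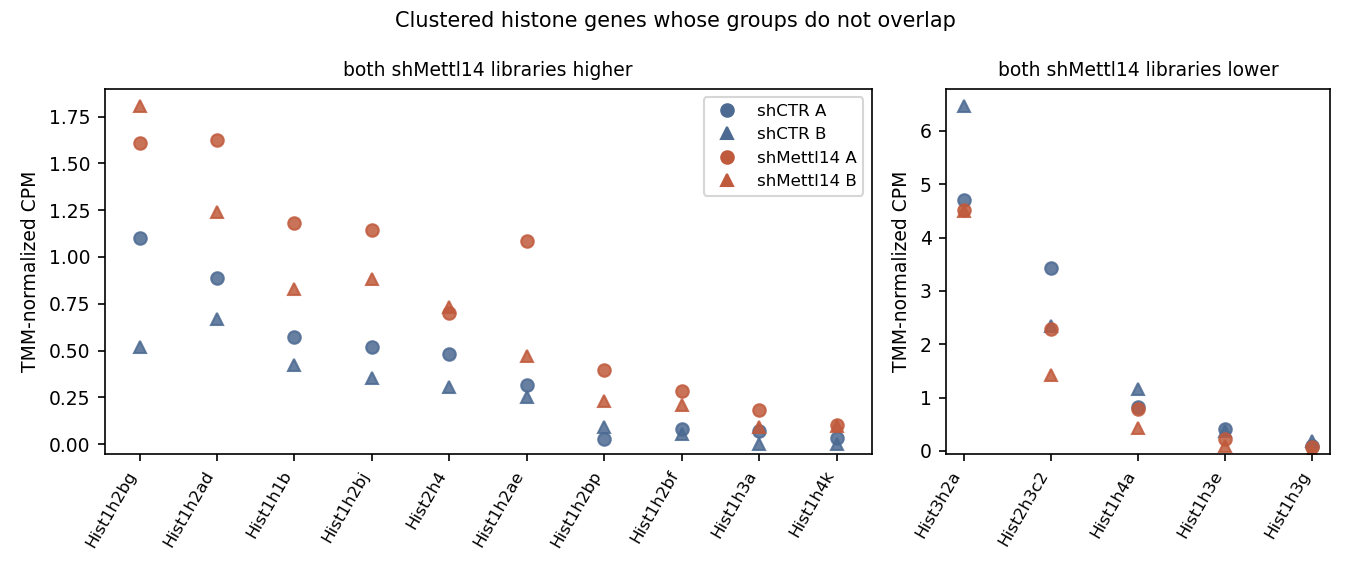
TMM-normalized CPM in each library for the 15 tested clustered genes whose groups do not overlap, 10 with both shMettl14 libraries higher (left) and 5 with both lower (right), with circles for letter A and triangles for letter B. All 10 genes on the left lie below 2 CPM, and the gap between the groups is narrow for several genes, such as Hist3h2a with 4.52 and 4.51 CPM in shMettl14 against 4.70 in shCTR A.

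Several of these genes were neighbours. In the annotation, 13 pairs of an H2A and an H2B gene start back to back on opposite strands, with 175 to 305 bases between their starts. In 5 pairs both genes were tested, and in 2 of the 5 both were above 0 in log2 fold change. These were Hist1h2ae and Hist1h2bg, at 1.45 and 1.08, and Hist1h2ad and Hist1h2bf, at 0.88 and 1.86, and in both pairs the groups did not overlap for either gene. Of these genes, Hist1h2bf passed the filter on low counts through shMettl14 alone. The remaining 3 were Hist1h2ac and Hist1h2bc (0.10 and -0.28), Hist1h2ai and Hist1h2bl (-1.14 and 0.16) and Hist2h2ac and Hist2h2be (-0.09 and -0.08). In the pair of Hist1h2an and Hist1h2bp, Hist1h2an was not tested, with 6 and 8 counts in shCTR A and B and 2 and 3 in shMettl14 A and B, opposite to Hist1h2bp. In the pair of Hist1h2ag and Hist1h2bj, Hist1h2ag was not tested either, with 0 and 0 counts in shCTR A and B and 3 and 3 in shMettl14 A and B, the same direction as Hist1h2bj (1.22).

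The bases between the starts are shown for the 2 pairs with both genes above 0 and for the pair with most counts. They are from the RefSeq promoter table (GRCm38.p6), plus strand, and the capitals mark 3 motifs on either strand, the CCAAT box, the TATA box searched as TATAAA, and the octamer searched as ATTTGCAT.

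Hist1h2ae and Hist1h2bg: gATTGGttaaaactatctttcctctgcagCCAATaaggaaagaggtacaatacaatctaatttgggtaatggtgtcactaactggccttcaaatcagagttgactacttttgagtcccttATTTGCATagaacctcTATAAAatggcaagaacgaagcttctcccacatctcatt

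Hist1h2bf and Hist1h2ad: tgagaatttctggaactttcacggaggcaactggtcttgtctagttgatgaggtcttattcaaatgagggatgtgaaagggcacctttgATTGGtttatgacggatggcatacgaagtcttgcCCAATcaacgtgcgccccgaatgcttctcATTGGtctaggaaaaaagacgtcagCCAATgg

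Hist1h2ac and Hist1h2bc: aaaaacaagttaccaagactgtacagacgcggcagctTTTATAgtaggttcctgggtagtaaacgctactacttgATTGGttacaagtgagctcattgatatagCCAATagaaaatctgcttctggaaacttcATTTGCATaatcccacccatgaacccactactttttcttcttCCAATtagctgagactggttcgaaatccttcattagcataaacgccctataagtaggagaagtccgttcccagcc

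The stretches lie at chr13:23571221-23571395, chr13:23574197-23574380 and chr13:23683949-23684198. CCAAT occurs 2, 4 and 3 times, TATAAA 1, 0 and 1 times and ATTTGCAT 1, 0 and 1 times in them, in this order. In windows of 250 bases before to 50 after the start, searched on both strands, CCAAT stood in 52 of 61 matched clustered genes (85.2%), beside 41.1% of 27025 genes. By class, it stood in each matched H1, H2A, H2B and H3 gene and in 3 of 12 H4 genes. TATAAA stood in 35 of 61 (57.4%, beside 15.7%), Hist1h2bf and Hist1h2ad among them, though not within the stretch shown for that pair. The octamer ATTTGCAT stood in 14 of 61 (23%, beside 1.97%), 7 of 17 H2A and 7 of 16 H2B genes, and in 0 of the H1, H3 and H4 genes. Of the 10 matched replacement genes, 8 held CCAAT, 1 TATAAA and 1 ATTTGCAT.

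A shared stretch did not go with a shared level. Hist1h2bc had a mean of 93 CPM per kb, whereas Hist1h2ac, with 73 and 70 counts in shCTR A and B and 101 and 70 in shMettl14 A and B, had a mean of 0.27 CPM per kb. Hist1h2bg and Hist1h2ae had means of 2.04 and 0.75 CPM per kb. Lengths are of all annotated exons, so a gene with a long minor transcript has a lower level per kb.

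The clustered genes without AATAAA in the last exon were compared with those that carry it. Without it, 27 genes were tested, 20 were above 0, the median log2 fold change was 0.39, and both shMettl14 libraries were higher in 7 (25.9%) and lower in 3 (11.1%). With it, 16 were tested, 8 were above 0, the median was 0.01, and both shMettl14 libraries were higher in 3 (18.8%) and lower in 2 (12.5%). The median of the genes without AATAAA was 0.03 without shCTR B, -0.04 without shMettl14 A, 0.91 without shMettl14 B and 1.11 without shCTR A. Of all tested genes, 51.2% were above 0, 14.7% had both shMettl14 libraries higher and 13.3% had both lower. The group without AATAAA also had shorter annotated exons (median 476 bases, against 1595) and held genes with no annotated 3′ UTR. Over its 21 tested genes with such a UTR, the median was 0.39, 16 were above 0, and both shMettl14 libraries were higher in 5 (23.8%) and lower in 3 (14.3%). Hist1h2bf, Hist1h3a and Hist1h4k, which passed the filter through shMettl14 alone, are among the 7 higher genes without AATAAA. Hist1h3g, which passed through shCTR alone, is among the 3 lower ones. AATAAA was searched for in the whole last exon, so a match need not lie near the mRNA end. The difference between the 2 kinds of gene was not tested.

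The summed level of the clustered genes without AATAAA was 33.3 and 19.8 CPM in shCTR A and B and 40.6 and 25.2 in shMettl14 A and B (exact permutation p = 0.667). For a list of 25 RNAs known to lack a poly(A) tail, among them Rn7sk, Rpph1 and Scarna6, the summed level was 2.70 and 1.25 CPM in shCTR A and B and 5.55 and 1.87 in shMettl14 A and B. Of these, 5 were tested and 8 had 0 counts in every library, including Rmrp and Rnu7. Rpph1, the RNA of RNase P, had 69 and 0 counts in shCTR A and B and 301 and 18 in shMettl14 A and B. Whether the captured clustered histone RNA had a tail was not measured, and the part of RNA without a tail in the histone values was not tested. For the clustered genes with AATAAA, the summed level was 302 and 194 CPM in shCTR A and B and 266 and 169 in shMettl14 A and B, lower in shMettl14 within each letter.

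**Figure D4:**
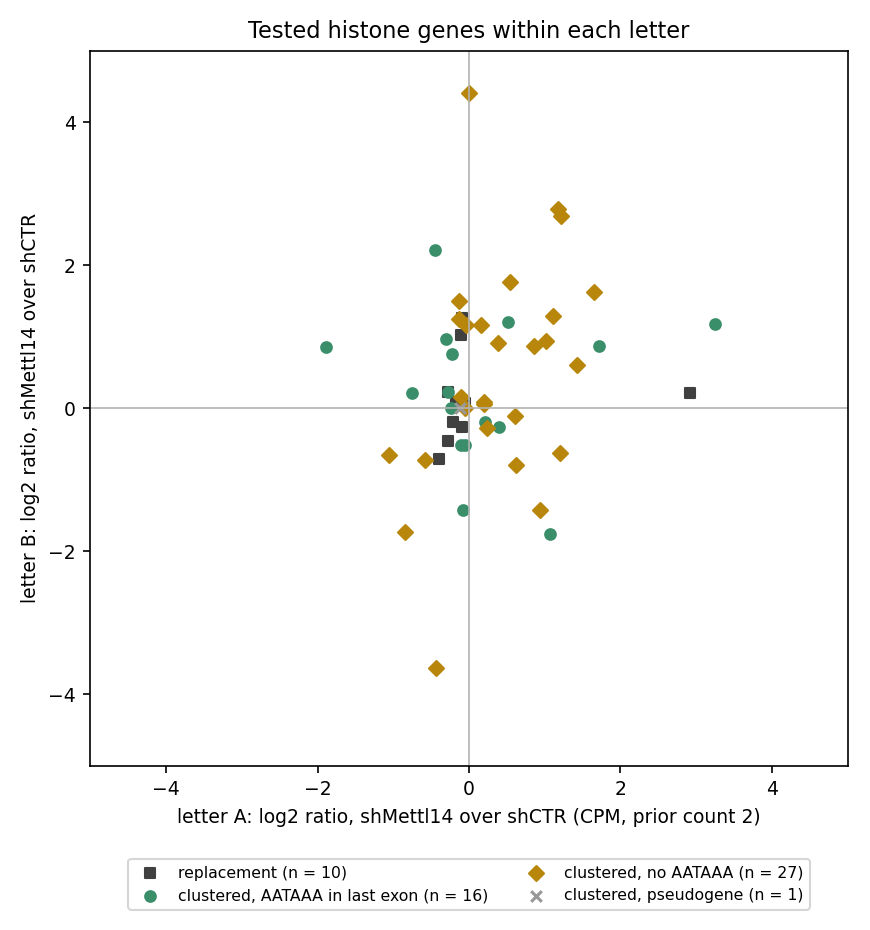
Log2 ratio of shMettl14 over shCTR in letter A (horizontal) and letter B (vertical) for the 54 tested histone genes, from CPM with a prior count of 2, with symbols for replacement genes (n = 10) and for clustered genes with AATAAA (n = 16), without it (n = 27) or annotated as a pseudogene (n = 1). Within both letters 15 of 44 clustered genes (34.1%) and 1 replacement gene lie above 0, beside 30% of all tested genes, and 7 clustered (15.9%) and 4 replacement genes lie below 0, beside 27.6%.

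The genes that act on histone mRNA were measured in the same libraries. Of 30 genes for the 3′ end processing, translation and decay of histone mRNA, all were tested and 0 had an unadjusted p under 0.05 in edgeR in either direction. Both shMettl14 libraries were higher in 2 (6.67%, beside 14.7% of all tested genes) and lower in 8 (26.7%, beside 13.3%). The median log2 fold change of the 30 genes was -0.10. Slbp, the stem-loop binding protein, had 2505 and 2613 counts in shCTR A and B and 2122 and 2749 in shMettl14 A and B, and on the CPM scale both shMettl14 libraries were lower (log2 fold change -0.25, SE 0.22). Lsm10, a protein of the U7 snRNP, had 1522 and 1415 counts in shCTR A and B and 1239 and 1115 in shMettl14 A and B (-0.48, SE 0.25). Its partner Lsm11 (0.04), the U7-linked zinc finger protein Zfp473 (-0.11) and Casp8ap2 (0.21) overlapped between groups. Npat, the coactivator of clustered histone genes, had 2409 and 4866 counts in shCTR A and B and 3002 and 4268 in shMettl14 A and B (-0.19, SE 0.41), also overlapping.

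Of 29 S phase genes, 0 were higher and 1 was lower at an unadjusted p under 0.05 in edgeR, beside 1.67% of tested genes. The lower gene was Mcm3, a subunit of the replicative helicase (log2 fold change -0.56, SE 0.20, adjusted p = 1). Mcm3 had 3717 and 3729 counts in shCTR A and B and 2554 and 3138 in shMettl14 A and B. Both shMettl14 libraries were lower in 8 (27.6%, beside 13.3%) and higher in 1 (3.45%, beside 14.7%), and the median log2 fold change was -0.19. Within both letters, shMettl14 was lower in 20 (69%, beside 27.6% of all tested genes) and higher in 2 (6.9%, beside 30%). The summed level of these genes was 670 and 802 CPM in shCTR A and B and 577 and 710 in shMettl14 A and B, higher in letter B, whereas the clustered histone sum was higher in letter A. The part of cell proliferation in the histone values was not tested.

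Of 25 genes in a list of histone chaperones and their partners, which also holds the histone Cenpa, and of 17 poly(A) tail genes, 0 had an unadjusted p under 0.05 in edgeR, and their median log2 fold changes were -0.07 and 0.11. Both shMettl14 libraries were higher in 2 and lower in 1 gene of each list, shares of 8% and 4% for the chaperone list and 11.8% and 5.88% for the poly(A) tail genes, below the 14.7% and 13.3% of all tested genes. The summed level of 7 smooth muscle markers was 6798 and 5765 CPM in shCTR A and B and 4441 and 4804 in shMettl14 A and B, with 1 of the 7 lower at an unadjusted p under 0.05 in edgeR (Acta2, log2 fold change -0.58, SE 0.21, adjusted p = 1), beside 1.67% of all tested genes in either direction. All 7 had a log2 fold change below 0, and both shMettl14 libraries were lower in 3 (42.9%, beside 13.3%). The summed level of 6 endothelial markers was 1183 and 1814 CPM in shCTR A and B and 1238 and 1331 in shMettl14 A and B, highest in shCTR B, though its member Tie1 was not (171 and 136.1 CPM in shCTR A and B and 158.2 and 134.5 in shMettl14 A and B). The summed level of 6 leukocyte markers was 4.25 to 5.71 CPM. That of 4 fibroblast markers was 83.4 and 170.3 CPM in shCTR A and B and 87 and 128.7 in shMettl14 A and B, also highest in shCTR B. Most of this fibroblast sum was Dcn (68.3 and 159.8 CPM in shCTR A and B and 72.3 and 120.2 in shMettl14 A and B). The other members, Pdgfra, Dpt and Lum, were not highest in shCTR B, where Lum had 0 counts. The part of other cell types in the histone values was not tested.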

How the data were processed

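Poly-A–enriched, stranded TruSeq libraries of 2 shCTR and 2 shMettl14 VSMC samples were sequenced in pairs on a HiSeq 2500. STAR was used by the authors for mapping to GRCm38 (mm10, Ensembl version 86) and featureCounts for counting. The deposited table holds whole, unnormalized counts for each gene symbol. Versions, and whether strand was used or reads on several places counted, are not given in the sources used here. Counts were fitted over all 4 libraries with edgeR 4.0.16 in R 4.3.3 (TMM, filterByExpr, robust quasi-likelihood test, Benjamini-Hochberg over all genes tested, threshold 0.05). Sums and shares were compared by a two-sided exact permutation test over libraries, and ratios within a letter used a prior count of 2. Alternatives were other normalizations and filters, DESeq2 1.42.0, a replicate block and leaving out each library. The scripts were tested on simulated data with less spread between libraries than these have. That test does not show which changes could be found here. Totals of 114343653 to 124815868 put 3 counts at 0.0231 to 0.0278 CPM on the TMM scale. Sequence features came from GENCODE M21 transcripts, a later release than the authors', and promoters from RefSeq GRCm38.p6. No genome sequence was used here, so only annotated transcript ends were searched. Genes named were Mettl14, replacement genes of at least 1 CPM, the 2 highest clustered genes of each class, members with an unadjusted p under 0.05, the 3 highest and 3 lowest log2 fold changes among clustered genes of at least 1 CPM, and set genes of the lists. Members and lists were chosen with earlier results of these data known.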

Additional observations from a re-analysis of the deposited data

How the results depend on the processing

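Histone genes with an adjusted p under 0.05 numbered 0 under each of the 11 alternatives. Over all genes the count was 0, 4 in DESeq2, 9 with the replicate block and 0 to 1 with a library left out (1 without shCTR B). With 2 pairs the letters are not shown to pair the libraries, although deviations of same-letter libraries correlated at 0.58. The common dispersion, edgeR's measure of spread between libraries, was 0.178 in the main fit and 0.0418 with the replicate block. Standard errors given here are from the main fit and so hold differences between the letters. With the replicate block 11 histone genes (20.4%) had an unadjusted p under 0.05, against 1, and so had 10.3% of all tested genes, against 1.67%. Library totals alone moved the median of all genes to 0.12 (log2), turning the replacement sum to 0.02003, H2afy2 to 0.0666, H2afz to 0.0358 and Hist2h2be to 0.0483, the last also to 0.0021 with the replicate block. Without the clustered gene with most counts, Hist1h2bc, the clustered share averaged 14.8% against 22.8%.

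With 1 library left out, the lone library being assumed to vary like the others, the clustered median ran from -0.0777 to 0.69, that of genes without AATAAA (added after seeing the data) from -0.0380 to 1.11, the clustered sum from -0.47 to 0.21 and the replacement sum from -0.34 to 0.16. Clustered genes with both or the remaining shMettl14 libraries above shCTR (added after seeing the data) numbered 13 to 23 against 10. The replacement median ran from -0.26 to 0.19. Of 28 named genes, 15 changed sign in some alternative, as did 3 of 8 named genes of the lists, with log2 fold changes of -0.0691 to 0.10 (H1f0), -1.42 to 0.64 (H2afj), -0.16 to 1.07 (H2afx), -0.24 to 0.20 (H2afy2), -0.29 to 0.18 (H2afz), -0.30 to 1.5 (H3f3a), -0.44 to 0.0457 (H3f3b), -0.65 to 0.73 (Hist1h1c), -0.30 to 0.56 (Hist1h1e), -11.07 to 10.97 (Hist1h2al, where the lone library of a group has 0 counts at each end, so that these depend on the prior count and are no bounds), -0.64 to 0.0145 (Hist1h2bc), -0.0238 to 0.28 (Hist1h3b), -0.59 to 0.98 (Hist1h4h), -0.69 to 2.20 (Hist1h4i), -0.68 to 0.82 (Hist2h2be), -0.63 to 0.45 (Npat), -0.20 to 0.33 (Lsm11) and -0.17 to 0.74 (Casp8ap2). The cause was not tested. Hist1h2bp (1.75 to 3.51), Hist1h2bg (0.63 to 1.72), Hist1h2ad (0.67 to 1.11), Hist1h2bj (0.96 to 1.53), Hist1h2bf (1.61 to 2.13), Hist1h2ae (0.72 to 1.94), Hist1h1b (0.73 to 1.24), Hist1h4m (0.16 to 2.12), Hist2h3c2 (-1.03 to -0.33), Hist3h2a (-0.51 to -0.0622), H2afv (-0.76 to -0.35) and H2afy (-0.25 to -0.11) kept their sign. Mettl14 passed the threshold in DESeq2 (-2.09) and with the replicate block (-2.08). Of the 69 clustered genes, 16 reached a mean of 1 CPM, and depth limits the precision of the others.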

Other observations

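Other histone genes outside the symbol rule were present too, and they were chosen after their values were seen. H1fx, a replication-independent linker histone, had 1180 and 377 counts in shCTR A and B and 917 and 586 in shMettl14 A and B, higher in letter A as Hist1h1c was. Cenpa, the H3 variant of centromeres, had 2274 and 1923 counts in shCTR A and B and 2290 and 3045 in shMettl14 A and B, and its groups overlapped. H3f3c had 35 and 75 counts in shCTR A and B and 30 and 76 in shMettl14 A and B, higher in letter B. The pseudogene Hist3h2bb-ps, left out by the rule, had 5 and 0 counts in shCTR A and B and 7 and 8 in shMettl14 A and B. The sperm linker histone Hils1 had 1 and 0 counts in shCTR A and B and 3 and 15 in shMettl14 A and B, and H1fnt had 0 in every library.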
